A study of Mus musculus with 3 samples.

Results

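Type 7 ON cone bipolar cells are interneurons that carry cone signals from the outer to the inner retina of the mouse. They were chosen here from single-cell RNA sequencing of retinas as barcodes with at least 2 reads of Trpm1 and Grm6 together, at least 2 reads of Igfn1 and at least 1 read of Vsx1. They also had fewer than 2 reads each of Cnmd, which marks type 6 cells, and of Sebox, which marks rod bipolar cells, and 3 or more reads in fewer than 4 of the 5 Müller glia genes Rlbp1, Slc1a3, Aqp4, Kcnj10 and Car14. The rule found 629 cells among 6768 ON bipolar cells and among 25237 barcodes that had at least 500 detected genes and at most 20% mitochondrial reads. By library, 208, 184 and 237 of them were type 7 cells, of 2328, 1914 and 2526 ON bipolar cells in the treated, KO and WT libraries.

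ON bipolar cells sense glutamate from photoreceptors with the metabotropic receptor mGluR6, the product of Grm6, which in darkness keeps the cation channel TRPM1 closed through a G protein. Light lowers the glutamate, the channel opens and the cell depolarises. Cone bipolar types differ in the depth at which their axons end in the inner plexiform layer, in their partners there and in the receptors they carry. Type 7 axons end in its ON sublayer, and Igfn1, which encodes a protein with immunoglobulin and fibronectin domains, and Vsx1, which encodes a homeodomain transcription factor, are used as their markers.

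The 3 libraries were made from P26 retinas and form 3 groups of 1 library each. The treated library came from Tspan12 KO mice given F4L5.13 intraperitoneally at 10 mg/kg at P6, P9 and P12 and then at 4 mg/kg every 3 days, the KO library from Tspan12 KO mice, and the WT library from wild-type mice, and the strain label Tspan12tm1.2Hjug was given to all 3. Tspan12 encodes a tetraspanin that takes part in Norrin signalling through FZD4 and LRP5 in retinal endothelium, and F4L5.13 is an antibody that acts on that receptor complex. Cells were dissociated with papain, photoreceptors and dead cells were removed with beads against CD73 and Annexin V, and the labels do not say how many animals went into a library. With 1 library per group, no p-value was computed between conditions, and a difference between libraries cannot be told apart from a difference between mice or preparations.

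The libraries held 9835, 10769 and 6092 barcodes in the treated, KO and WT order, with medians of 6588, 7351 and 14797 reads per barcode. Type 7 cells had medians of 17427, 22300 and 14332 reads and of 3493, 4400 and 3312 genes, so KO type 7 cells were the deepest. Their summed reads were 4989441, 4558960 and 4534711. Between 12 and 29 barcodes were shared by each pair of libraries, and none of them was a type 7 cell in both. The targeted gene was too sparse in type 7 cells to check the labels, with 7, 11 and 1 Tspan12 reads in the treated, KO and WT libraries, and it is also possible for reads at the 3′ end to lie outside a deletion. All levels below are CPM, a gene's reads per 1000000 reads summed over the cells of a class in a library, and they compare a gene with itself.

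The genes of the rule describe the gate and are no finding. Igfn1 had a median of 7, 8.5 and 6 reads per type 7 cell in the treated, KO and WT libraries, and its summed level was 375, 439 and 368 CPM. Rod bipolar cells, which should lack it, had 1.94, 1.56 and 2.04 CPM, with a read in 2.83%, 2.04% and 2.65% of cells at medians of 13188, 10760 and 11361.5 reads. The gate for rod bipolar cells itself allowed fewer than 2 Igfn1 reads, so these levels were held low by the gate and are no independent background. Vsx1 stood at 506, 515 and 533 CPM in type 7 cells, and Trpm1 at 752, 890 and 798 CPM. In the files' mouse build mm10 (GRCm38), with GENCODE vM21 gene positions, Igfn1 lies at chr1:135953578-136006342 on the minus strand and Vsx1 at chr2:150680702-150689360 on the minus strand. Just outside the Igfn1 threshold, 23, 10 and 28 cells that met the rest of the rule had 1 Igfn1 read, and just inside it 10, 18 and 23 cells had exactly 2. The type 6 gene Cck stood at 429, 137 and 111 CPM in the cells with 1 read, at 280, 54.8 and 122 CPM in those with 2 and at 106, 161 and 63.6 CPM in those with 3 or more.

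Markers that the rule did not use fitted an ON cone bipolar cell in all 3 libraries. Isl1, a LIM homeodomain factor of ON bipolar cells, stood at 466, 387 and 500 CPM in the treated, KO and WT type 7 cells, and Gpr179, which anchors the regulators of the mGluR6 cascade, at 398, 415 and 462 CPM. Prkca, the protein kinase C alpha gene that marks rod bipolar cells, had 12, 17.8 and 9.70 CPM in type 7 cells, against 1599, 1252 and 1406 CPM in rod bipolar cells. Cck, which encodes cholecystokinin and marks type 6, had 114, 153 and 68.6 CPM, against 1183, 919 and 1399 CPM in type 6 cells. The type 7 values lay below those of the other class in every library for both genes. Both were picked as markers of classes that the gates had already kept apart by Sebox and Cnmd. How many of all genes separate in this way was not counted. Sox6, a marker of type 5 cells, had 30.1, 48.9 and 29.1 CPM in type 7 cells, below the 72.1, 70.4 and 73.1 CPM of the remaining ON bipolar cells.

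**Figure D1:**
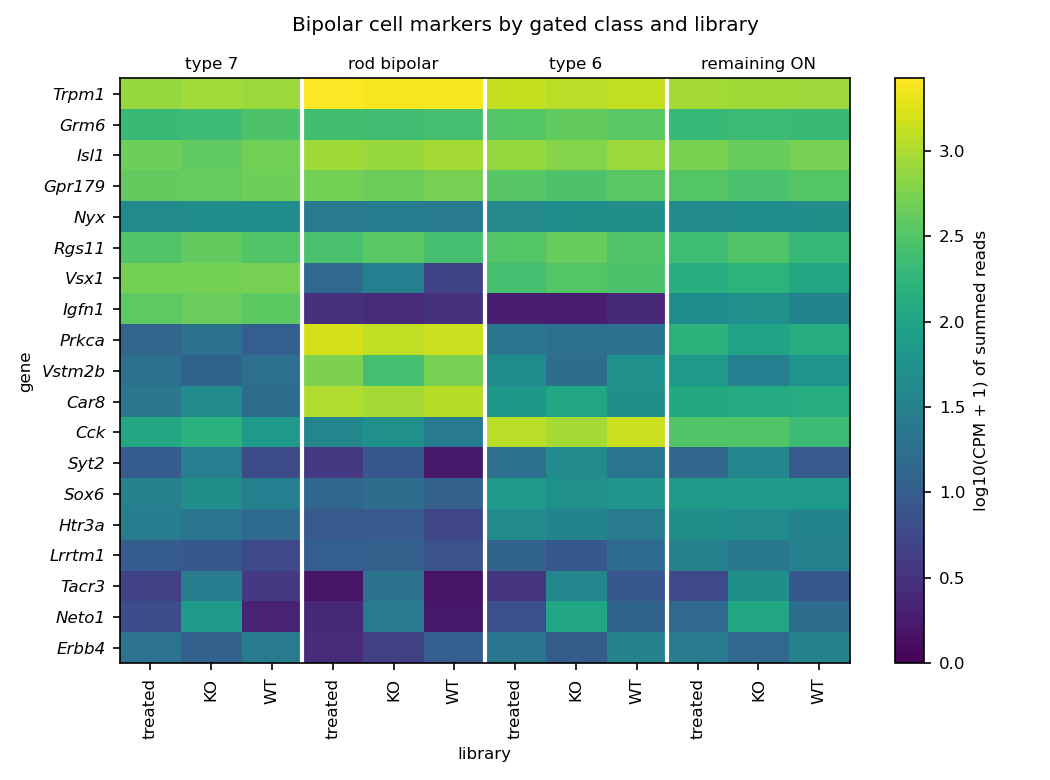
Heat map of marker genes (rows) in the gated bipolar classes and their libraries (columns), colour giving log10(CPM + 1) of summed reads. Prkca is high in rod bipolar columns and Cck in type 6 columns, while both are low in the type 7 columns, where Igfn1 is high by construction.

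Some type 7 cells also carried reads of another retinal class. OFF cone bipolar markers were Tacr3 and Neto1, rod bipolar markers Prkca and Vstm2b, and cone markers Arr3, Gnat2, Pde6c and Cnga3. Amacrine markers were Gad1, Gad2, Slc32a1, Slc6a9 and Tfap2b, and Müller glia markers Rlbp1, Aqp4, Kcnj10 and Car14. Cells with 5 or more reads of markers of another class made up 17.8% (37 cells; exact Clopper-Pearson 95% interval 12.8 to 23.7%) of treated, 32.1% (59 cells; 25.4 to 39.3%) of KO and 16.9% (40 cells; 12.3 to 22.3%) of WT type 7 cells. The KO cells stood highest for OFF cone bipolar markers, which 15.2% of KO cells carried, against 0.481% of treated and 0.422% of WT cells, and with amacrine markers, which 8 KO, 0 treated and 1 WT cells carried. The KO library was also high for OFF genes in its other bipolar classes. A read of Neto1, an OFF marker, was found in 13.0% of KO type 7, 24.1% of KO type 6, 20.0% of KO remaining ON and 4.66% of KO rod bipolar cells. In the treated library it was found in 1.44%, 4.44%, 4.29% and 0.901% of those classes, and in the WT library in 0.844%, 4.22%, 4.20% and 0.279%. Cone markers were carried by 13.5%, 15.2% and 12.7% of treated, KO and WT cells. The marked cells were deeper, with a median of 45999 reads against 15703 in the other treated cells, 33135 against 17550 in KO and 29195 against 13727 in WT. No doublet caller was run. Such cells are called mixed cells below, and the class tests and the comparisons between libraries were repeated without them, although the counts by gene list between classes were not. They were removed from type 7 only. In the repeated class tests, type 7 cells were thus set against classes that kept cells with reads of other classes, which by itself can add lower calls.

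**Figure D2:**
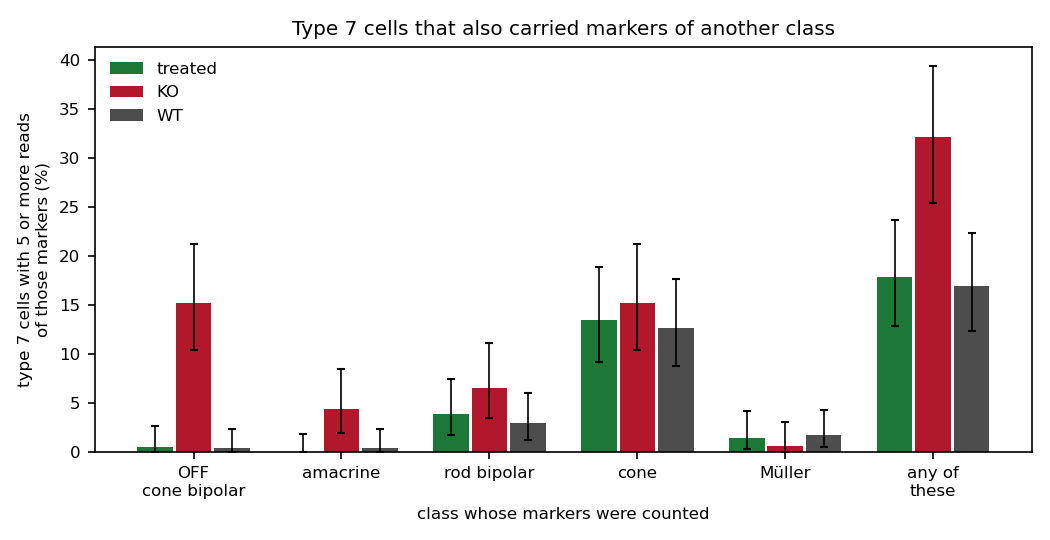
Percentage of type 7 cells (vertical axis) with 5 or more reads of markers of the class on the horizontal axis, by library, with exact 95% intervals for counting error. KO cells stand at 15.2% for OFF cone bipolar markers, against 0.481% of treated and 0.422% of WT cells, while cone markers are at 12.7 to 15.2% in all 3 libraries.

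Type 7 cells made up 8.93% (7.81 to 10.2%) in the treated, 9.61% (8.33 to 11.0%) in the KO and 9.38% (8.27 to 10.6%) in the WT library, with exact 95% intervals that overlap and cover counting error only. After every cell was thinned to 4000 reads, the shares were 4.05%, 4.84% and 3.73%. Without the mixed cells they were 7.46%, 6.74% and 7.92%. The KO library was highest in the first 2 sets and lowest in the last. Mixed cells were taken out of type 7 only, and the other ON classes kept theirs. The last set therefore falls most in the KO library, where 32.1% of type 7 cells were mixed, and its order is no finding.

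Genes that set type 7 cells apart were sought by comparing their summed reads with those of other bipolar classes inside each library, so that the 3 libraries serve as the units. The test was edgeR's quasi-likelihood test with Benjamini-Hochberg adjustment over 17640 genes, with the library as a block, and the 12 genes of the gates were left out. Against the remaining ON bipolar cells, which are all ON bipolar cells outside the type 7, type 6 and rod bipolar gates, 318 genes were higher in type 7 cells (1.8% of genes tested) and 531 were lower (3.01%), or 849 in all (4.81%). That total was 173 without the WT library, 277 without the treated library, 140 without the block, 1950 when only the 2 classes were fitted, and 1511, with 515 higher and 996 lower, without mixed cells. Against rod bipolar cells 1554 genes were higher (8.81%) and 1484 lower (8.41%; 17.2% in all), and against type 6 cells 328 were higher (1.86%) and 336 lower (1.9%; 3.76% in all). The last pair of counts was 490 and 583 without mixed cells. Leaving out the treated or the WT library left 1797 and 1743 genes in all against rod bipolar cells and 288 and 283 against type 6 cells. Type 7 cells exceeded all 3 other ON classes in 143 genes (0.811% of those tested) and were below all 3 in 67 (0.38%). Because the remaining cells hold shallow cells of any type, some with Igfn1 reads, the differences from them are differences from a mixture. Markers of other retinal classes were also lower in type 7 than in the remaining cells, namely 11 of 15 rod, 6 of 11 cone, 2 of 10 amacrine, 9 of 12 endothelial and 4 of 5 mural genes tested, and 0 were higher. Against type 6 cells, 1 of the same rod, 2 of the cone and 0 of the amacrine, endothelial and mural genes were lower. Their part in the lower calls was not tested.

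Of 15 modulator receptor genes tested, 3 were higher than in the remaining ON bipolar cells and 1 was lower, beside 1.8% higher and 3.01% lower of all genes tested. The list median was -0.04 on the log2 scale, against -0.02 over all genes. Chrm3, the M3 muscarinic acetylcholine receptor, stood at 65.3, 55.1 and 77.8 CPM in treated, KO and WT type 7 cells, against 26, 19.6 and 31.5 CPM in the remaining cells (log2 difference 1.41, SE 0.20, adjusted p = 0.0002, edgeR). Npy1r, the Y1 receptor of neuropeptide Y, stood at 12, 3.95 and 13.9 CPM, against 3.59, 0.545 and 2.92 CPM (2.27, SE 0.46, edgeR adjusted p = 0.0064). Tacr1, the substance P receptor at chr6:82402334-82560104 on the plus strand, had 35.5, 3.73 and 36.8 CPM, against 6.58, 2.06 and 3.63 CPM (2.55, SE 0.58, edgeR adjusted p = 0.014). For Tacr1 the KO type 7 cells fell within the range of the remaining cells, and its call was lost without the treated library (edgeR adjusted p = 0.24) and without the WT library (0.17). The Npy1r call was lost in the same 2 cases (0.09 and 0.18). The lower member was Htr3a, an ionotropic serotonin receptor (log2 difference -1.03, SE 0.17, edgeR adjusted p = 0.0014; 0.052 without the WT library).

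Outside that list, Adra2c, the alpha-2C adrenergic receptor, had 101, 106 and 129 CPM in treated, KO and WT type 7 cells, against 23.6, 23.7 and 25.9 CPM in the remaining ON cells (2.22, SE 0.19, edgeR adjusted p = 1.3e-06). It was also higher than in rod bipolar cells, at 3.17, 4.45 and 2.47 CPM, and than in type 6 cells, at 37.7, 46.1 and 72.2 CPM. Adra2b, a second alpha-2 receptor gene, stood at 27.1, 9.65 and 16.1 CPM, against 7.92, 4.30 and 6.12 CPM (1.51, SE 0.31, edgeR adjusted p = 0.0065). The type 7 values lay above those of every other ON class in each library for both genes, which were chosen after their values were seen.

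Receptors for fast transmitters gave calls in both directions, beside 1.8% higher and 3.01% lower of all genes tested. Gabrr2, a subunit of GABA-C receptors on bipolar axon terminals, had 637, 595 and 612 CPM in treated, KO and WT type 7 cells, against 323, 331 and 318 CPM in the remaining cells (0.96, SE 0.09, edgeR adjusted p = 3.3e-06). It was 1 of 2 higher and 2 lower members among 19 inhibitory receptor genes tested. Gria2, an AMPA receptor subunit, was the 1 higher member of 17 excitatory receptor genes, at 864, 671 and 847 CPM, against 520, 513 and 472 CPM (0.72, SE 0.16, edgeR adjusted p = 0.01). The lower one was Grin3a, an NMDA receptor subunit (-1.04, edgeR adjusted p = 0.0085; 0.12 without the treated and 0.1 without the WT library).

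Within the mGluR6 cascade, 4 of 12 genes tested were higher and 1 was lower, with a list median of 0.26. Over all genes tested, 1.8% were higher and 3.01% lower, with a median of -0.02. Gnb3, the G protein beta-3 subunit of ON bipolar cells, was higher by 0.76 (SE 0.12, edgeR adjusted p = 0.00069), Rgs11, which speeds up the G protein's shut-off, by 0.55 (SE 0.11, 0.0042) and Gpr179 by 0.53 (SE 0.12, 0.016). None of these 3 genes passed the test against rod bipolar cells (edgeR adjusted p = 0.062, 0.71 and 0.051), and Gnb3 alone of them passed it against type 6 cells (0.56, SE 0.12, edgeR adjusted p = 0.0071). Of 36 calcium-signalling genes, 5 were higher and 9 lower. Cabp2, a calmodulin-like calcium-binding protein, stood at 278, 253 and 308 CPM in treated, KO and WT type 7 cells, against 166, 138 and 164 CPM (0.88, SE 0.17, edgeR adjusted p = 0.0036), while its relative Cabp5, a usual bipolar marker, was lower (-0.82, SE 0.21, 0.027).

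Among 56 ion channel genes, 3 were higher and 7 lower, beside 1.8% higher and 3.01% lower of all genes tested. Kcnab1, an auxiliary subunit of voltage-gated potassium channels, had 136, 115 and 126 CPM in treated, KO and WT type 7 cells, against 31.8, 42.0 and 33.9 CPM in the remaining ON cells (1.87, SE 0.18, edgeR adjusted p = 3.3e-06). It was low in rod bipolar cells too, at 8.63, 12.4 and 4.93 CPM, and in type 6 cells, at 18.9, 21.0 and 15.0 CPM. Kcnma1, the pore subunit of the BK potassium channel, differed by 0.79 (SE 0.14, edgeR adjusted p = 0.0017) and Kcnd3, a voltage-gated potassium channel, by 0.89 (SE 0.19, 0.0075). Of 31 genes of the release machinery 1 was higher and 1 lower.

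Cell adhesion genes moved both ways, with 12 higher and 15 lower among 86 tested and a list median of -0.45. Over all genes tested, 1.8% were higher and 3.01% lower, with a median of -0.02. Sdk2, a homophilic adhesion protein of retinal synapses, stood at 73.4, 51.5 and 90.6 CPM in treated, KO and WT type 7 cells, against 23.4, 20.8 and 23.7 CPM in the remaining cells (1.70, SE 0.20, edgeR adjusted p = 3.7e-05). Its level in rod bipolar cells was like that in type 7 cells, at 72.5, 87.0 and 61.7 CPM. Cdh9, a classical cadherin, stood at 55.7, 67.6 and 92 CPM, against 34.6, 29.0 and 33.9 CPM (1.18, SE 0.18, edgeR adjusted p = 0.00059; 0.054 without the WT library). Pcdh17, a protocadherin, differed by 1.34 (SE 0.23, edgeR adjusted p = 0.0013). On the lower side were the leucine-rich repeat genes Lrrtm1 (-1.95), Lrrtm4 (-2.02) and Tpbg (-1.99), and Lrrtm4, which rod bipolar synapses use, had 2.61, 4.17 and 4.41 CPM in type 7 cells, against 136, 91.5 and 139 CPM in rod bipolar cells.

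Of 40 transcription factors tested, 15 were lower and 5 higher, beside 3.01% lower and 1.8% higher of all genes tested. The list median was -0.62, against -0.02 over all genes. The higher members were Prdm8, St18, Six6, Etv5 and Pou2f2. Sox5, which is not in that list and was named for the size of its difference, is an SRY-box factor gene at chr6:143828425-144781977 on the minus strand. It had 92.2, 113 and 152 CPM in treated, KO and WT type 7 cells, against 18.5, 23.9 and 27.0 CPM in the remaining ON cells (2.40, SE 0.20, edgeR adjusted p = 9.2e-07). In rod bipolar cells it had 2.38, 2.56 and 1.72 CPM. Prdm8, a zinc-finger repressor that bipolar cells need, lay between classes, at 117, 115 and 127 CPM, against 49.2, 70.2 and 51.5 CPM in the remaining cells and 288, 258 and 249 CPM in rod bipolar cells. The lower factors included Nfix (-1.16), Meis2 (-1.17), Bhlhe23 (-1.16), which rod bipolar cells need, and Six3 (-1.08). Meis2 is also an amacrine marker, and it was higher in type 7 than in rod bipolar cells (0.80, SE 0.20, edgeR adjusted p = 0.0064).

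Among secreted factors and their receptors, Wnt4, a Wnt ligand gene at chr4:137277489-137299726 on the plus strand, had the second-highest difference of the named genes. It stood at 43.5, 29.6 and 32.4 CPM in treated, KO and WT type 7 cells, against 6.33, 3.69 and 2.92 CPM in the remaining cells (3.11, SE 0.41, edgeR adjusted p = 0.0002), and at 0.176, 1.78 and 0.750 CPM in rod bipolar cells. Fzd2, a Frizzled receptor gene, had 19.4, 12.7 and 17.0 CPM, against 4.33, 3.88 and 3.01 CPM (2.13, SE 0.44, edgeR adjusted p = 0.0079). Fzd2 was 1 of 3 higher members of 28 Wnt and Norrin genes tested, with Fzd3 and Gsk3b, and 2 were lower, Lef1 and Tcf7l2. Of all genes tested, 1.8% were higher and 3.01% lower. Among called genes with at least 30 reads in the type 7 cells of every library, the other genes at the top were the unnamed transcript gene 4930512H18Rik (3.19), Fam20a (2.85), a pseudokinase gene, Commd1b (2.57), a near copy of Commd1 whose reads are uncertain, Dclk3 (2.56), Disp1 (2.53), Trhde (2.49), Gfra1 (2.49) and Npb (2.40). Without single libraries the edgeR call was lost for Fam20a (adjusted p = 0.067 without KO), Dclk3 (0.086 without treated, 0.08 without WT), Gfra1 (0.053 without WT) and Npb (0.079 without treated, 0.21 without WT). The most reduced named gene was Ttr, the transthyretin gene, a product of the pigment epithelium (-8.10).

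**Figure D3:**
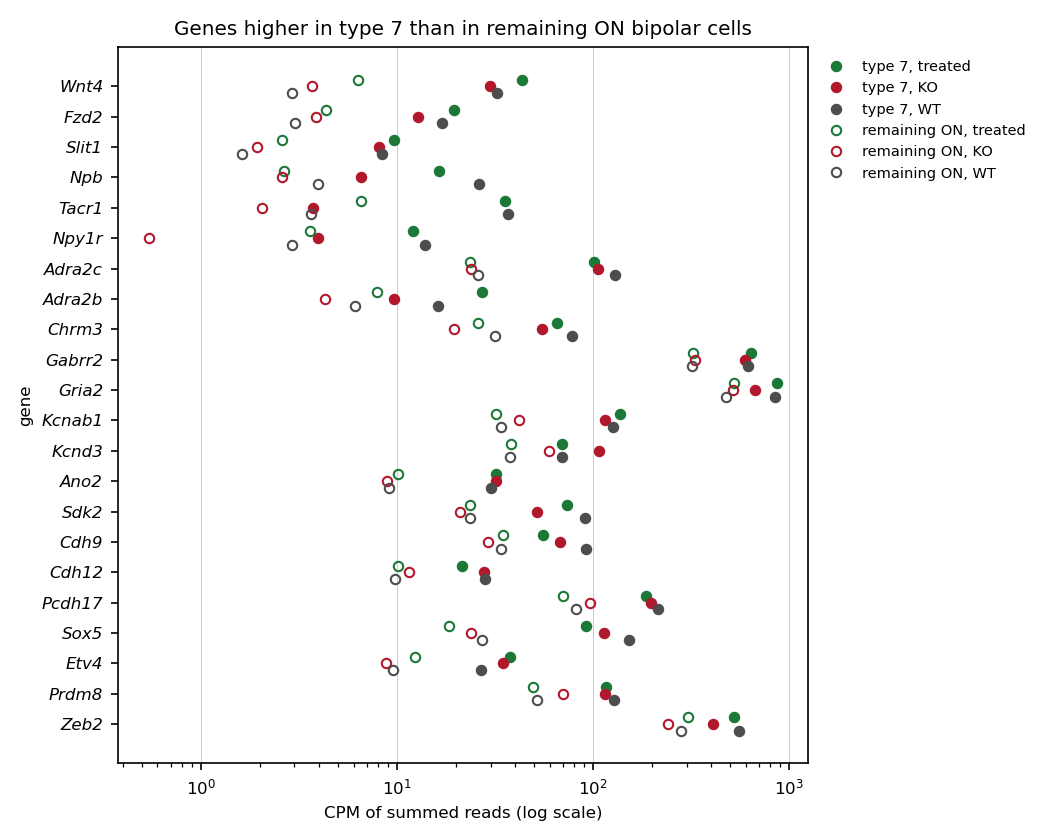
Level of named genes (rows) in CPM of summed reads on a log scale (horizontal axis), in type 7 and in the remaining ON bipolar cells of each library. For Sox5, Adra2c, Wnt4 and Kcnab1 the 3 type 7 points lie above the 3 points of the remaining cells, whereas the KO point of Tacr1 in type 7 cells, at 3.73 CPM, lies among them.

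Against OFF cone bipolar cells 844 genes were higher in type 7 cells (4.78% of genes tested) and 280 lower (1.59%; 6.37% in all). That gate held 10, 9 and 10 cells in the treated, KO and WT libraries, and the split turned to 339 higher and 362 lower with RLE scaling, so no gene of it is described.

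Between conditions, a gene was called past the fold rule when its CPM ratio was at least 2 either way, its higher library held at least 30 molecule equivalents and the exact 95% interval's bound nearest 1 lay beyond 1.5. Molecule equivalents are reads divided by 3.20, 2.87 and 2.77 in the treated, KO and WT libraries, and the interval, an exact conditional binomial one, covers counting error only. In KO against WT type 7 cells 108 genes were higher (1.34% of 8074 genes) and 55 lower (0.681%; 2.02% in all). In treated against KO cells 53 were higher (0.663% of 7990) and 92 lower (1.15%; 1.81% in all), and in treated against WT cells 5 were higher (0.0628% of 7956) and 9 lower (0.113%; 0.176% in all). The first 2 comparisons share the KO library, so their opposite directions are not independent. Without mixed cells the counts were 56 higher and 37 lower for KO against WT, 39 and 53 for treated against KO, and 1 and 4 for treated against WT. Leaving cells out also lowers the molecule equivalents and widens the intervals. A call named below as lost without mixed cells can therefore be lost with its ratio unchanged. Fewer cells of a type and less RNA per cell cannot be told apart in these sums, which were made from a gated type.

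Several genes that set type 7 cells apart were low in the KO library. Of the 143 genes higher in type 7 cells than in all 3 other ON classes, 141 were measured in KO against WT cells, of which 11 were past the fold rule lower and 0 higher. Their median log2 ratio was -0.26, against 0.03 over all genes, and their interval lay below 1 in 53 and above 1 in 8, against 8.88% below and 11.0% above of 11110 genes. In treated against KO cells 8 were past the rule higher, and the median was 0.22. In treated against WT cells none was past the rule either way, with a median of -0.05. There 8 lay above 1 and 23 below, against 6.2% above and 4.89% below of all genes, or 15 above and 9 below without mixed cells. The 143 genes were chosen from type 7 sums of the same libraries, and the shared KO library sets the opposite signs together. Without mixed cells 7 were past the rule lower and 1, Fn1, higher in KO against WT cells, with 42 below 1, 9 above and a median of -0.17.

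Tacr1 had 35.5, 3.73 and 36.8 CPM in treated, KO and WT type 7 cells, from 177, 17 and 167 reads. It was 9.88-fold lower in KO than in WT cells (interval 4.26 to 28.2) and 9.51-fold higher in treated than in KO cells (4.09 to 27.3). Only the KO library was low. A Tacr1 read was found in 25.5% of treated, 3.26% of KO and 32.5% of WT type 7 cells, and after thinning to 4000 reads in 10.8%, 0 and 13.9%, although KO cells were the deepest. Without mixed cells the level was 43.3, 2.03 and 43.3 CPM. The ratio of KO to WT was 0.567 in the remaining ON bipolar cells, which did not pass the rule.

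R3hdml, a gene for a secreted CAP-domain protein at chr2:163492318-163502612 on the plus strand, had 26.5, 4.17 and 37.3 CPM in treated, KO and WT type 7 cells. It was 8.94-fold lower in KO than in WT cells (4.01 to 23.9), and its ratio in the remaining cells was 1.10. Fstl4, a follistatin-like gene at chr11:52764634-53188538 on the plus strand, had 28.7, 5.26 and 29.1 CPM (5.53-fold lower, 2.63 to 13.3; ratio in the remaining cells 0.613). Serpine2, the protease inhibitor nexin-1, had 65.3, 19.5 and 64.8 CPM (3.32-fold lower, 2.21 to 5.1), and its ratio in the remaining cells was 0.984. For R3hdml, Fstl4 and Serpine2 the KO library again stood apart from the other two, all 3 remained past the rule without mixed cells, and the remaining ON cells did not pass it. The difference between the 2 classes was not tested.

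Rgs3, a regulator of G protein signalling at chr4:62559847-62704001 on the plus strand, had 58.3, 19.3 and 82.7 CPM in treated, KO and WT type 7 cells, 4.28-fold lower in KO than in WT cells (2.88 to 6.56). It was low in KO remaining ON cells as well, at 17.2, 4.91 and 19.1 CPM, and past the rule there. A read was found in 58.2%, 24.5% and 65.0% of treated, KO and WT type 7 cells, and in 22.5%, 6.63% and 27.4% after thinning. Gadd45a, a stress-response gene linked to DNA repair, had 51.9, 13.8 and 56.9 CPM (4.12-fold lower in KO than in WT cells, 2.56 to 6.89), and was also past the rule in the remaining cells, at a ratio of 0.496. Hamp, the hepcidin gene, had 35.7, 10.1 and 34.4 CPM (3.41-fold lower, 1.93 to 6.36).

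Wnt10a, a Wnt ligand gene, had 134, 1 and 83 reads in treated, KO and WT type 7 cells, or 26.9, 0.219 and 18.3 CPM. Its KO to WT ratio of 0.0120 has an interval of 6.1e-07 to 0.162. The 83 WT reads lay close to the rule's minimum of 30 molecule equivalents, and the gene was not past the rule without mixed cells. Fmo2, a flavin monooxygenase gene, had 6, 0 and 85 reads, and 64.7% of the WT reads came from 5 cells. Col8a1, Mical2, Chodl, Cpne9 and Npb were also among the lowest ratios of KO to WT, and none of these 5 passed the rule without mixed cells.

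**Figure D4:**
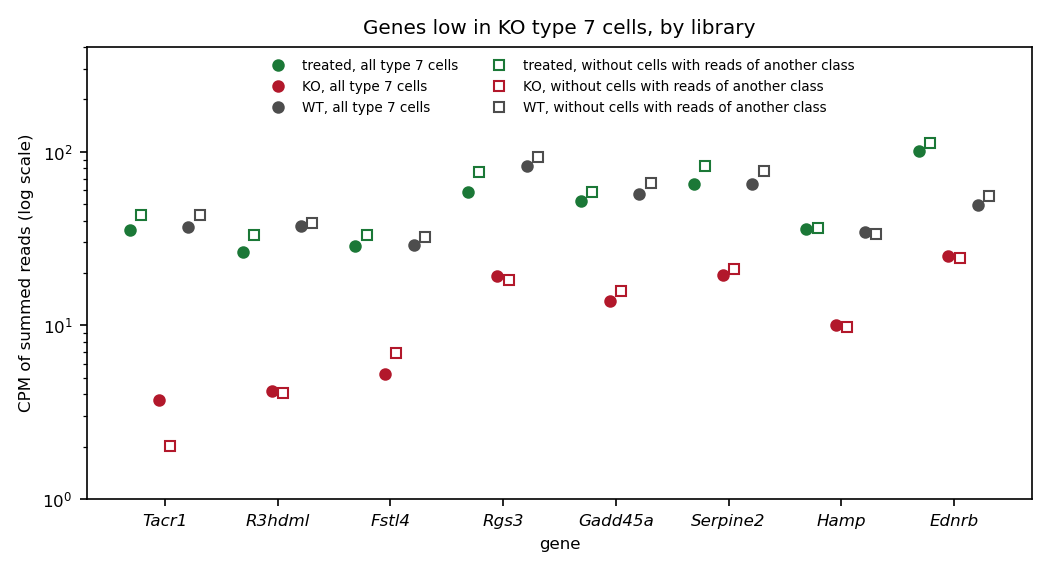
Level of the named genes (horizontal axis) in treated, KO and WT type 7 cells, in CPM of summed reads on a log scale. Filled circles give all type 7 cells and open squares the type 7 cells left without mixed cells, and no intervals are drawn. For Tacr1, R3hdml, Fstl4, Rgs3, Gadd45a and Serpine2 the KO point lies below the treated and WT points.

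The highest ratios of KO to WT included genes of amacrine and OFF cone bipolar cells. Tfap2b, a transcription factor of amacrine cells, had 0.802, 54.2 and 0.221 CPM in treated, KO and WT type 7 cells, and 91.5% of the KO reads came from 5 cells. Gad1, which makes the transmitter GABA in amacrine cells, had 0.401, 21.3 and 1.32 CPM, with 96.9% of KO reads in 5 cells. The amacrine marker list summed to 92.4, 263 and 103 CPM, with 3, 1 and 3 of its 11 genes at 0, and to 84.1, 113 and 92.5 CPM without mixed cells. Tfap2b, Gad1 and Neto1 are among the markers that defined mixed cells. Lower levels of these genes, and in part of the amacrine sum, without mixed cells were therefore set in advance. None of the 12 named genes, which also include Tfap2a, C1ql1, C1ql2, Cartpt, Elavl3, Ebf1, Neto1, Calb1, Atp1b1 and Stc1, passed the rule without mixed cells. Stc1, the stanniocalcin-1 gene, was spread over more cells than the others, with a read in 2.40% of treated, 23.9% of KO and 0.844% of WT cells, and its level without mixed cells was 2.74, 29.2 and 0.303 CPM. In the remaining ON cells it had 1.79, 21.3 and 1.72 CPM.

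Genes of the hypoxia response and of glycolysis were higher in KO than in WT type 7 cells. Of 27 measured hypoxia-response genes, the interval of the ratio lay above 1 in 18 and below 1 in 0, against 11.0% above and 8.88% below of 11110 genes, and the median log2 ratio was 0.65, against 0.03 over all genes. Past the fold rule were 8, namely Slc2a1, Slc2a3, Egln1, Ndrg1, P4ha2, Higd1a, Ero1l and Slc16a3, and without mixed cells 3, namely Slc2a1, Egln1 and Higd1a. Without mixed cells 14 lay above and 1 below, with a median of 0.51. Of 22 glycolysis genes 17 had an interval above 1 and 0 below, with a median of 0.56 and 4 past the rule, Slc2a1, Slc2a3, Hk2 and Slc16a3. Without mixed cells 15 lay above and 0 below, and Slc2a1, Hk2 and Eno1 were past the rule. In treated against KO cells the interval lay below 1 for 12 hypoxia genes and 17 glycolysis genes, and above 1 for 0 of the hypoxia genes, against 9.47% below and 8.87% above of all genes, with medians of -0.46 and -0.51. Without mixed cells these were 10 and 15 genes, with medians of -0.27 and -0.48. In treated against WT cells it lay above 1 for 7 of the hypoxia genes, against 6.2% above and 4.89% below of all genes, with a median of 0.28, and above 1 for 4 and below 1 for 6 of the glycolysis genes, with a median of -0.05. Without mixed cells it lay above 1 for 4 hypoxia genes, with a median of 0.11.

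Hk2, the hexokinase that starts glycolysis, had 47.9, 181 and 45.6 CPM in treated, KO and WT type 7 cells (KO to WT ratio 3.97, interval 3.07 to 5.19; treated to KO 0.264). A read was found in 36.1%, 81.0% and 27.4% of the cells. Egln1, the prolyl hydroxylase that marks HIF for degradation and is itself a HIF target, had 79.6, 198 and 61.1 CPM (3.24, 2.58 to 4.09; treated to KO 0.403). Higd1a, a hypoxia-induced mitochondrial protein gene, had 183, 446 and 173 CPM (2.57, 2.24 to 2.96; treated to KO 0.411). For these 3 genes the KO library stood above the other two, whose treated to WT ratios were 1.05, 1.30 and 1.06. In the remaining ON cells the KO to WT ratios were 3.61, 2.41 and 2.73, so the same direction was found outside type 7 cells. Slc2a1, the glucose transporter GLUT1, had 98.8, 156 and 69.5 CPM in type 7 cells (2.25, 1.79 to 2.83), against a ratio of 1.22 in the remaining cells, and Vegfa, the vascular growth factor gene, had 134, 157 and 109 CPM (1.44), not past the rule.

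**Figure D5:**
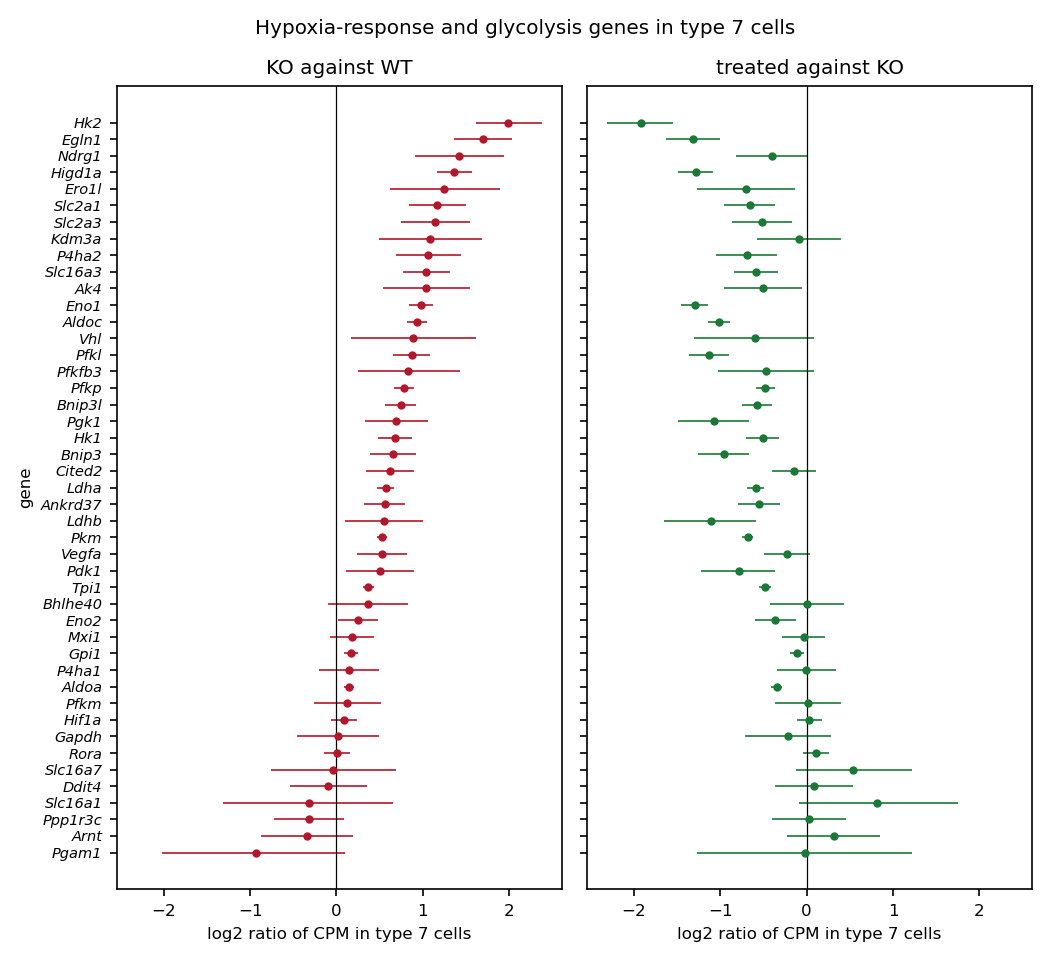
Log2 ratio of CPM in type 7 cells (horizontal axis) for the 45 genes of the hypoxia-response and glycolysis lists with at least 30 reads in every library, sorted by KO against WT, with exact 95% intervals for counting error. For Hk2, Egln1 and Higd1a the KO to WT ratio lies above 0 and the treated to KO ratio below 0.

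The promoters of Hk2, Egln1 and Higd1a are shown because these are the members of either list that were past the fold rule higher in KO against WT and lower in treated against KO cells. The windows run from 250 bases before to 50 after the start of the gene, 5′ to 3′ on the minus strand, as given by RefSeq for GRCm38.p6. Capitals mark ACGTG, the core of the hypoxia response element, and GCGTG, searched on both strands, so that CACGT and CACGC are the reverse forms, and adjoining matches run together.
Hk2: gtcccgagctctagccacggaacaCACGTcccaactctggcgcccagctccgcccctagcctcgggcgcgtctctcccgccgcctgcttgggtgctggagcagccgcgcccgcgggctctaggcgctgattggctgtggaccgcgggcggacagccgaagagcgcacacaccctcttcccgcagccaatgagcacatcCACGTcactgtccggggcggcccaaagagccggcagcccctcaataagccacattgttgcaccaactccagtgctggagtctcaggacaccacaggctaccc
Egln1: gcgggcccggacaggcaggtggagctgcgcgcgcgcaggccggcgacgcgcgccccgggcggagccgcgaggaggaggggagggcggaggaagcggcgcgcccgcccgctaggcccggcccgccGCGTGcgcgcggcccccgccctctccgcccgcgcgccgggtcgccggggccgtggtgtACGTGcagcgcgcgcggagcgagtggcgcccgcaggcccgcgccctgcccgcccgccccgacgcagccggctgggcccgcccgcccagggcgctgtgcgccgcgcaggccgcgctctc
Higd1a: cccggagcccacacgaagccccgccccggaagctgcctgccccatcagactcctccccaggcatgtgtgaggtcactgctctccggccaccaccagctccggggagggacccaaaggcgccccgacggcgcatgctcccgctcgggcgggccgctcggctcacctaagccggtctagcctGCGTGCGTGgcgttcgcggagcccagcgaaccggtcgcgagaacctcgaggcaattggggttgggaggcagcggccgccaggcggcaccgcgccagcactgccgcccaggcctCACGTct
Hk2 lies in the window chr6:82774405-82774704 and holds ACGTG 2 times and GCGTG 0 times, Egln1 in chr8:124949205-124949504 with 1 of each, and Higd1a in chr9:121857747-121858046 with 1 and 2. ACGTG was in 19.7% of all 27025 promoters of the table and in 57.8% (26 of 45) of the promoters matched to the 53 genes of the lists, and GCGTG in 32.5% and in 60.0% (27 of 45). A match describes these letters in the window and is no site shown to be bound.

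Type 6 markers were also higher in KO than in WT type 7 cells. Cck had 114, 153 and 68.6 CPM in treated, KO and WT cells (KO to WT ratio 2.23, 1.77 to 2.81, and 2.24 without mixed cells), and Syt2, a synaptotagmin gene, had 9.02, 28.5 and 5.29 CPM (5.39, 2.58 to 12.7), not past the rule without mixed cells. For the lists that follow, the KO to WT interval lay above 1 in 11.0% and below 1 in 8.88% of all 11110 genes. Of 25 measured oxidative phosphorylation genes, the interval lay above 1 in 1 and below 1 in 7, with a median of -0.08 and none past the rule. Of 13 measured Wnt and Norrin genes of 35 in the list, 2 lay above 1 and 0 below, and Dkk3, a secreted Wnt-pathway modulator, was past the rule with mixed cells (ratio 3.22) and not without them (0.557, 0.0414 to 3.94). Of 11 measured mGluR6 cascade genes, 2 lay above 1 and 6 below, or 3 and 2 without mixed cells, and none was past the rule. Bhlhe23, one of the transcription factors low in type 7 cells, had 63.1, 99.1 and 44.5 CPM in treated, KO and WT cells (KO to WT ratio 2.23, 1.68 to 2.98, and 3.05 without mixed cells), while its ratio in the remaining cells was 1.01.

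Treated and WT type 7 cells differed past the rule in few genes. Ednrb, the endothelin B receptor gene, had 101, 25.0 and 49.4 CPM in treated, KO and WT cells, 4.05-fold higher in treated than in KO cells (2.84 to 5.89) and 2.05-fold higher than in WT cells (1.56 to 2.71). It had 82.1, 21.3 and 35.0 CPM in the remaining ON cells. Egr1, an immediate early gene, had 247, 405 and 118 CPM (treated to WT 2.09, 1.76 to 2.50), and Cacna2d2, a calcium channel subunit gene, had 87.0, 52.4 and 40.4 CPM (2.16, 1.59 to 2.94). Of those named lower, Apoe, which glia make in quantity, had 49.5, 58.1 and 111 CPM, and 66.1% of its WT reads came from 5 cells. None of these 4 treated to WT calls remained without mixed cells. With the mean of per-cell CPM in place of summed reads, 21 genes were higher and 9 lower in treated against WT cells.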

How the data were processed

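Per the labels, cells were profiled with the 10x Chromium v3 3′ kit. The submitters' processing notes name mm10 and Partek 9.0; the aligner and counter are not given in the sources used here. The deposited tables hold estimated counts per gene and barcode for 24071 genes, a unit read from the values, of which 2.34%, 2.33% and 2.39% of those above 0 in the treated, KO and WT libraries lay over 0.001 from a whole number. All were rounded, which set 3.37%, 3.33% and 3.39% to 0. The sizes of low values (48.3%, 53.3% and 54.8% equal 1 in genes seen in few barcodes) led to treating them as reads not collapsed to molecules, so reads were divided by 3.20, 2.87 and 2.77 for counting intervals.

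Classes were gates on few genes, and members and lists were chosen with earlier results of these data known. Sums of 5 classes in 3 libraries (15 sums) were tested with edgeR 4.0.16 (TMM scaling, library block, genes with at least 10 reads in at least 3 sums, adjusted p under 0.05), R 4.3.3; DESeq2 1.42.0 was an alternative. Libraries were compared by CPM of summed reads, with no test. The test was tried on simulated data. Intervals are 95% and cover counting error only. Python 3.11.15, NumPy 2.4.6, SciPy 1.17.1, pandas 2.3.3 and matplotlib 3.10.9 were used.

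Named genes were the 12 largest positive and 8 largest negative differences against the remaining ON cells among called genes with at least 30 reads in every library (in type 7 cells for the positive ones, in the other class for the negative ones), the 5 largest each way for the other classes, list members called with a log2 difference of 1 or more, and, between libraries, the 12 highest and 12 lowest ratios (6 each way for treated against WT). The ranking between libraries skipped photoreceptor, mitochondrial, ribosomal, haemoglobin, crystallin and sex-linked genes and models without a gene name. Other genes named were picked after their values were seen.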

Additional observations from a re-analysis of the deposited data

Results flagged for a closer look

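Vim, the vimentin gene of Müller glia and other supporting cells, went opposite ways in type 7 cells and in the remaining ON bipolar cells in treated against KO. Its ratio was 0.224 (interval 0.0846 to 0.510) in type 7 cells, at 4.61 CPM in treated and 20.6 CPM in KO cells, and 2.46 in the remaining cells, at 52.7 CPM in treated and 21.4 CPM in KO cells. In the type 7 cells 85.1% of the KO reads came from 5 cells, and without mixed cells the ratio was 0.376 (0.0652 to 1.62) and not past the fold rule. The difference between the 2 classes was not tested.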

How the results depend on the processing

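The number of genes called in the class comparisons depended on the fit. Without the library block it was 140 against remaining ON, 1673 against rod bipolar and 288 against type 6 cells, beside 849, 3038 and 664. With only the 2 classes compared it was 1950 against remaining ON, 1043 against type 6 and 229 against OFF cone bipolar cells (1124 with all classes), and RLE scaling gave 701 against OFF cells. Without mixed cells, an alternative chosen after seeing the data, it was 1511 against remaining ON and 1073 against type 6 cells. Leaving out 1 library gave 173 (without WT) to 804 (without KO) against remaining ON, 1743 to 2656 against rod bipolar, 283 to 648 against type 6 and 383 to 810 against OFF cells.

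Between conditions, 163, 145 and 14 genes were past the fold rule for KO against WT, treated against KO and treated against WT. In thinned cells the counts were 28, 17 and 2, with no minimum of molecule equivalents 269, 243 and 31, with reads as they stand 578, 603 and 214, and without mixed cells 93, 92 and 5. The mean of per-cell CPM gave 30 for treated against WT. On the log2 scale, Calb1 in KO against WT turned to -0.98 and Cartpt in treated against KO to 0.71 without mixed cells, and Apoe in treated against WT turned to 0.053 with the stricter gate. For the shares of ON bipolar cells in the treated, KO and WT libraries, gates after thinning gave 4.05%, 4.84% and 3.73%, and the stricter gate 7.30%, 7.68% and 6.53%. All barcodes as the denominator gave 2.33%, 1.8% and 3.90%, and leaving mixed cells out of type 7 alone 7.46%, 6.74% and 7.92%. The cause was not tested.

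Of the named genes' alternatives in the class comparisons, 944 kept direction and call and 79 kept only the direction, and between conditions 404 and 138. No paired analysis was possible because each group has 1 library, so the groups share fewer than 2 replicate numbers. The depth of a KO type 7 cell exceeded that of the other libraries, and genes with under 30 molecule equivalents could not be called.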

Other observations

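Metallothioneins, which bind zinc and copper, were high in the KO type 7 cells. Mt1 had 773, 2456 and 797 CPM in treated, KO and WT cells (KO to WT ratio 3.08, 2.89 to 3.28; treated to KO 0.315), and Mt2 had 166, 474 and 172 CPM (2.75, 2.39 to 3.16; treated to KO 0.351). The KO to WT ratios in the remaining ON bipolar cells were 3.09 and 2.99. Of 15 measured immediate early genes, the KO to WT interval lay above 1 in 10 and below 1 in 1, against 11.0% above and 8.88% below of all genes, and above 1 in 8 and below 1 in 0 without mixed cells. Egr1 (3.43) was past the fold rule in both cases, and Dusp1 (2.23) was not without mixed cells (2.04, 1.43 to 2.94). Of the 67 genes lower in type 7 cells than in all 3 other ON classes, 47 were measured in KO against WT cells. The interval lay above 1 in 17 and below 1 in 1, against the same 11.0% and 8.88% of all genes. Past the rule higher were 4, namely Bhlhe23, Car8, Six3 and Vwc2l. Without mixed cells the interval lay above 1 in 11 and below 1 in 1, and of these 4 genes only Bhlhe23 was past the rule, with Prph2, a photoreceptor gene, as the other. The 67 genes were chosen from type 7 sums of the same libraries, so these counts are not independent of that choice.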
